A study of Mus musculus with 2 samples.

Results

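Cells with the marker genes of group 2 innate lymphoid cells (ILC2s) or of mast cells were taken from single-cell RNA libraries of tumour-infiltrating white blood cells. They were chosen by counts of unique molecular identifiers (UMIs), each of which stands for 1 captured RNA molecule, so the levels of the gate genes are a description and not a finding. A cell was kept if it had 0 UMIs of Cd3e and Cd3d together, 0 of Foxp3, 0 of Ncr1 and at most 1 of Csf1r, and passed either of 2 sides. The mast side asked for at least 5 UMIs of Mcpt4, Cma1, Tpsb2 and Cpa3 together, and the ILC2 side for at least 1 UMI of Gata3 and at least 1 of Il1rl1. The gate held 101 of 18112 retained cells, of which 100 came from the FDPS knockout library and 1 from the control library. Within the knockout library 4 cells passed the mast side, 96 passed the ILC2 side and 0 passed both. Only 96 of all 1990 knockout cells that met the conditions on Cd3e, Cd3d, Foxp3, Ncr1 and Csf1r passed the ILC2 side. An overlap of 0 among 4 mast-side cells is therefore no result by itself.

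The cells were sorted as live CD45+ cells, on day 14 after injection, from tumours that the mouse melanoma line B16-F10 had formed under the skin. In the FDPS knockout group the line was an FDPS knockout, FDPS being the mevalonate pathway's farnesyl diphosphate synthase, and in the control group it was labelled WT, with B16-VC in the sample title. The genotype belongs to the injected line; no other genotype is given for the sorted host cells. Each group had 3 tumours and gave 1 library, with no map from cells to tumours, so there is no replicate and no test between groups, and every comparison below is of libraries or of summed cells. Exact intervals, Clopper-Pearson for shares and Poisson for summed UMIs, are at the 95% level and cover counting error only. The study asked how the immune cells of FDPS-deficient tumours differ from those of control tumours.

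ILC2s are lymphocytes without a rearranged antigen receptor that depend on the transcription factor GATA3, respond to the alarmin interleukin-33 through its receptor ST2 (the product of Il1rl1), and are known for making interleukin-5, interleukin-13 and amphiregulin. Mast cells are tissue-resident granulocytes that depend on the KIT receptor and on GATA2, bind IgE through the high-affinity receptor FcεRI, and store histamine and proteases in heparin-containing granules. Mast cells carry ST2 as well, so Il1rl1 on its own does not separate the 2 types.

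After filtering, the knockout library held 8697 cells with a median of 11148 UMIs, and the control library 9415 cells with a median of 14012 UMIs. The libraries shared 30 cell barcodes. Among cells with at least 5 UMIs of the melanocyte genes Dct, Pmel, Mlana and Tyrp1 and no Ptprc, Fdps had 36 UMIs in 8 cells of the knockout library, or 52.5 to 104 CPM by its exact interval, CPM being UMIs scaled to the same summed depth in every group, against 396 CPM (386 to 407, 351 cells) in the control library. Since the libraries differed in melanoma cells, shares are also given below per NK cell and per lymphocyte.

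The genes that define the 2 sides, and Gata2, lie at these places in GENCODE vM21 on build GRCm38, each as a protein-coding gene. Cma1 (mast cell chymase) is at chr14:55941451-55944675 and Mcpt4 (a chymase-type mast cell protease) at chr14:56059629-56062313, both on the minus strand of the same chromosome. Cpa3 (mast cell carboxypeptidase A) is at chr3:20215620-20242181 on the minus strand, and Tpsb2 (a tryptase) at chr17:25366305-25369098 on the plus strand. Gata3 is at chr2:9857078-9890034 on the minus strand, Il1rl1 at chr1:40429570-40465415 on the plus strand, and Gata2 at chr6:88193891-88207032 on the plus strand.

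GATA factors bind DNA around the letters GATA, and the 2 sides of the gate differed in which GATA gene they carried, as described below. The promoter windows of Il1rl1, which both sides carried, and of 3 of the mast cell protease genes are therefore shown, each from 250 bases before to 50 bases after a start, 5′ to 3′ on the gene's strand, from RefSeq on GRCm38.p6. Capitals mark 4 motifs on either strand, spelled AGATAA and with its last letter changed AGATAG, and with the first letter of each of these changed TGATAA and, for the other, TGATAG. Of the 6 genes that define the sides, 5 had an entry. Tpsb2 had none, and Gata3 is not shown.

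Il1rl1, upstream start, chr1:40429320-40429619, plus strand: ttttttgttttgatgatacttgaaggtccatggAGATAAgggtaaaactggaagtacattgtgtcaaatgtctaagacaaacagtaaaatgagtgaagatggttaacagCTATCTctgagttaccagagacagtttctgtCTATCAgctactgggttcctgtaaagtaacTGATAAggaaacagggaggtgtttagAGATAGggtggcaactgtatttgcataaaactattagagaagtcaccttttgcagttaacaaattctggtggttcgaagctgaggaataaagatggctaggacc
Il1rl1, downstream start, chr1:40439379-40439678, plus strand: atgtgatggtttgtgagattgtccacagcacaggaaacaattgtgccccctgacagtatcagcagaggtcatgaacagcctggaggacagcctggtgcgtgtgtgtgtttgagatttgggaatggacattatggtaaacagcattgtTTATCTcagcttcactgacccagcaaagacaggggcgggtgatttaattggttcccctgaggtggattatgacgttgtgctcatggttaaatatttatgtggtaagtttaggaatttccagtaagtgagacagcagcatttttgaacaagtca
Cpa3, chr3:20242132-20242431, minus strand: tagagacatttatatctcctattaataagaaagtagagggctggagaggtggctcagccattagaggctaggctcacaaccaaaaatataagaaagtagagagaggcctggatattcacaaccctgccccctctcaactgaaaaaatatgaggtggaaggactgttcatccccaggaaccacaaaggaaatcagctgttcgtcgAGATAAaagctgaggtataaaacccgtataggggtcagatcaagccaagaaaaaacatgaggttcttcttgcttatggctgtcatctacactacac
Mcpt4, chr14:56062261-56062560, minus strand: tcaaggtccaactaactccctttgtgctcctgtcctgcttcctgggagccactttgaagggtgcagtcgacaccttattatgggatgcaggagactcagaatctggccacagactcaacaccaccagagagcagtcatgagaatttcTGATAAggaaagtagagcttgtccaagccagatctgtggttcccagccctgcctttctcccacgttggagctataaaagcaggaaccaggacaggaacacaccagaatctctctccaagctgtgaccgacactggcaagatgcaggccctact
Cma1, chr14:55944626-55944925, minus strand: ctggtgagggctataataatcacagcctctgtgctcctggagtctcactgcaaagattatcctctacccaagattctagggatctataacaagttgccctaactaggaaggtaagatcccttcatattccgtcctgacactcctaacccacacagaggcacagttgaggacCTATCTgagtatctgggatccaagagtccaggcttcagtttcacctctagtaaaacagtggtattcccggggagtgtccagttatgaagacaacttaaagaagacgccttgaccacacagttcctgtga

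The upstream Il1rl1 window held 5 such matches, and the other 4 windows held 1 each. Of 32851 promoter windows of the same length, 29.8% held at least 1 match and 0.0548% at least 5. Every window shown held a match and Gata3 is left out, so the number of shown windows with a match is not to be set against this share. A match describes letters in the window and not a bound site, and no binding was measured here.

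The 2 sides of the gate marked different cells. The 4 mast-side cells had 132, 390, 559 and 1158 UMIs of the 4 proteases, and all 4 had 0 UMIs of Gata3. Of the 96 ILC2-side cells, 94 had 0 UMIs of the proteases, 1 had 1 and 1 had 3, the last being UMIs of Cpa3. No other knockout cell that met the 4 excluding conditions had 3 or 4 protease UMIs, so no cell lay just under the threshold of the mast side except that member of the ILC2 side. On the ILC2 side 7 cells had exactly 1 UMI of Gata3, 6 had exactly 1 of Il1rl1 and 1 had exactly 1 of both. Just outside it, 66 knockout cells that met the 4 conditions had Gata3 and no Il1rl1, and 188 had Il1rl1 and no Gata3.

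Markers that the gate did not use separated the sides in the same way. Of 13 further mast cell genes, the mast-side cells had 9 to 12 detected (median 11.5), against 0 to 3 (median 1) in ILC2-side cells. Of 16 further ILC2 genes, mast-side cells had 1 to 3 detected (median 1), against 0 to 11 (median 8) in ILC2-side cells. The ranges of the mast cell genes do not overlap between the sides, while those of the ILC2 genes overlap through a few ILC2-side cells with few markers. Gata2, a marker outside the gate, had 13 UMIs (725 CPM) on the mast side and 0 on the ILC2 side. Gata3, which the rule asks of every ILC2-side cell, is a description only: it had 0 UMIs on the mast side, where the rule does not ask for it, and 815 (839 CPM) on the ILC2 side. Il1rl1 was present on both sides, with 6, 16, 24 and 13 UMIs in the mast-side cells (3292 CPM), against 971 CPM on the ILC2 side. Kit, the receptor for stem cell factor, was also shared, at 2344 CPM on the mast side and 213 CPM on the ILC2 side, where 57 of 96 cells had a UMI.

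**Figure D1:**
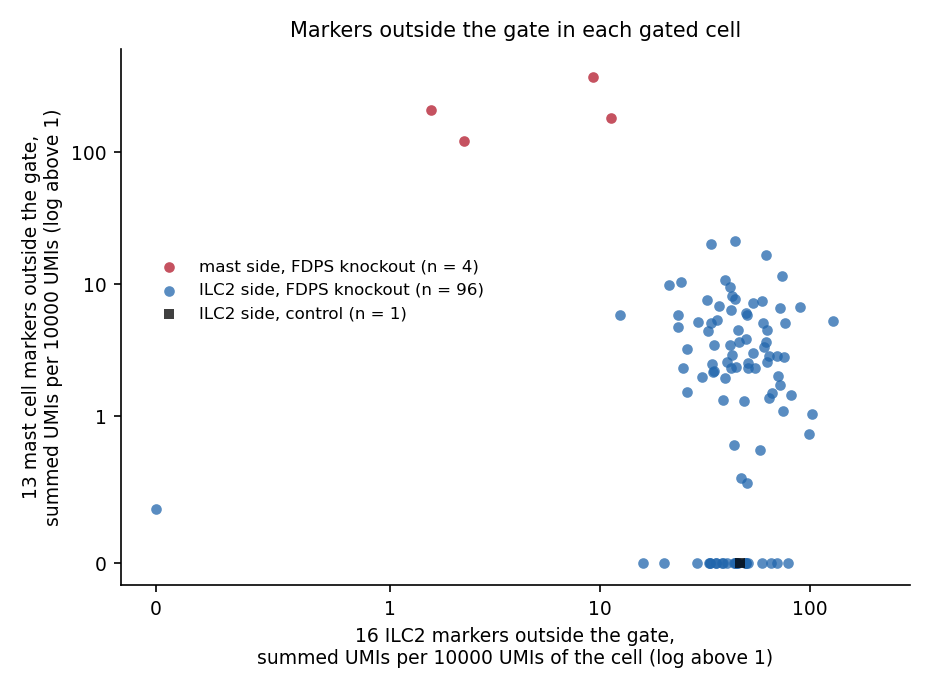
Summed UMIs of 13 mast cell markers outside the gate (vertical) against 16 ILC2 markers outside the gate (horizontal), both per 10000 UMIs of the cell, with 1 point per gated cell and log scales above 1. The 4 mast-side cells lie at 122 to 367 on the vertical axis, above all ILC2-side cells, whose highest value is 21.3.

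The mast side consisted of 4 knockout cells with 1758, 4429, 5369 and 6365 UMIs, and its summed 17921 UMIs make 1 UMI worth 55.8 CPM, so its values are given as UMIs. Mcpt4 had 32, 137, 137 and 404 UMIs in these cells, in order of their depth. Cma1 had 50, 157, 211 and 414 UMIs, Tpsb2 26, 46, 98 and 143, and Cpa3 24, 50, 113 and 197. The 4 gate proteases made up 7.51%, 8.81%, 10.4% and 18.2% of all UMIs of these cells. The tryptase genes Tpsab1 and Tpsg1 had 2 and 3 UMIs in all. Mcpt1 and Mcpt2, proteases known from mucosal mast cells, and Mcpt8, known from basophils, had 0 UMIs in all 4.

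**Figure D2:**
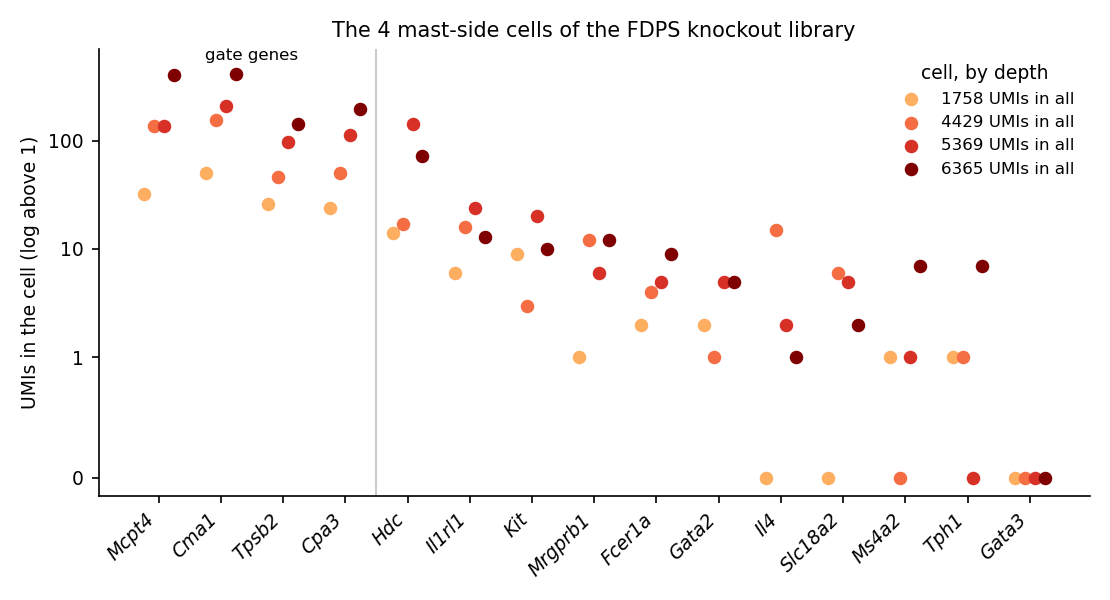
UMIs of 15 genes in each of the 4 mast-side cells of the FDPS knockout library (log scale above 1), coloured by the cell's total UMIs; the genes left of the line are the proteases of the mast side's gate, while Il1rl1 and Gata3 belong to the gate of the ILC2 side. Hdc lies at 14 to 143 UMIs, Il1rl1 at 6 to 24, and Gata3 at 0 in all 4.

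Histamine, receptor and transcription factor genes outside the gate were found in the same 4 cells. Hdc, the enzyme that makes histamine, had 14, 17, 143 and 72 UMIs, against 2 UMIs in all 96 ILC2-side cells. Fcer1a, the IgE-binding chain of FcεRI, had 2, 4, 5 and 9 UMIs, and 0 on the ILC2 side, which puts it at least 362-fold higher on the mast side against a floor of 3 UMIs over the 96 cells. Ms4a2, the beta chain of that receptor, had 9 UMIs in 3 of the 4 cells. Fcer1g, its gamma chain, had 52 UMIs on the mast side (2902 CPM), against 77 UMIs on the ILC2 side (79.2 CPM). The serotonin genes Slc6a4 (transporter), Tph1 (synthesis) and Slc18a2 (vesicular loading) had 19, 9 and 13 UMIs. The G protein-coupled receptors Mrgprb1 and Mrgprb2, the second of which mediates IgE-independent degranulation in mouse connective tissue mast cells, had 31 UMIs in 4 cells and 5 in 3 cells, and both had 0 UMIs on the ILC2 side. Meis2 and Tal1, transcription factor genes, had 19 and 7 UMIs in all 4 cells, and Erg had 8 in 2 cells. As a list, the transcription factors of mast cells were mixed, with 6 of 12 tested genes more than 2-fold higher than on the ILC2 side, 3 lower and 3 within, and a median log2 ratio of 1.38, or 0.82 when scaled by the median ratio of genes. Bhlhe40, among the lower ones, had 0 UMIs against 249, which is at least 1.53-fold lower against a floor of 3 UMIs over the 4 cells.

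Among cytokines, Il4 had 0, 15, 2 and 1 UMIs in the mast-side cells, so 1 cell held 15 of the 18. Il13, by contrast, had 1 UMI in 1 of these cells. The chemokine genes Ccl2 and Ccl7, which attract monocytes, had 15 UMIs in 3 cells and 9 UMIs in 1 cell. The cytokine list went both ways against the ILC2 side: of 12 tested genes 4 were higher (Il4, Ccl2, Ccl7 and Vegfa), 5 lower (Il5, Il13, Areg, Csf2 and Ccl4) and 3 within 2-fold, with a median of -0.14. Of the lower ones, Il5 and Ccl4 were at 0 UMIs on the mast side and under its floor on the ILC2 side, while Csf2 was at least 3.28-fold lower. Hpgds, the synthase of prostaglandin D2, had 5 UMIs and was found in all 4, and Alox5, the first enzyme of leukotriene synthesis, had 5 UMIs in 3.

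Outside every list, the 8 genes farthest above the ILC2 side were Lsamp, Adamts9, Sgcd, Cd63, Pde4d, Cd55, Pmp22 and Rab44. Cd63, a tetraspanin of granule membranes, had 25 UMIs in the 4 mast-side cells, against 4 in the 96 ILC2-side cells. Pde4d, a phosphodiesterase that breaks down cyclic AMP, had 75 against 27 UMIs, and Lsamp, a neuronal adhesion gene, had 44 against 1. Against all knockout cells outside the gate 5748 of 7970 genes tested were past 2-fold (72.1%, with 21.8% higher and 50.4% lower), and the 8 highest were Lsamp, Hs6st2, Adamts9, Sgcd, Fzd8, Tex21, Cyp11a1 and Hs3st3a1. Hs6st2 and Hs3st3a1 add sulfate to heparan sulfate and heparin, and had 28 UMIs in all 4 mast-side cells and 10 UMIs in 3 of them. Hs6st2 had 30 UMIs in all cells outside the gate together. The lowest outside the lists, Skap1, Cmss1, Dach2, Rabgap1l, Pard3, Cd52, Mdfic and Emb, were all at 0 UMIs on the mast side. For Skap1, a T cell adaptor at 2475 CPM on the ILC2 side, that is at least 14.8-fold lower against a floor of 3 UMIs over the 4 cells, and for Emb it is at least 5.43-fold lower.

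Mast cell genes were higher on the mast side than on the ILC2 side, while for many ILC2 genes the mast side was too shallow to tell. Past 2-fold on the log2(CPM + 5) scale, which understates changes of low genes, were 5463 of 7618 genes tested in the mast side over the ILC2 side (71.7%), 1772 higher (23.3%) and 3691 lower (48.5%), with a median log2 ratio of -0.84. Higher calls were 32.4% of all calls, or 22.2% when the sums were scaled by the median ratio of genes, which moved the median of all genes to -1.39. The share was 46.9% among genes with at least 50 CPM and 52.8% among those with at least 500 CPM, so the excess of lower calls was small at the first limit and absent at the second. Of the mast cell genes outside the gate 13 of 13 were higher, which is a description only. On the ILC2 side 6 of them had 0 UMIs, namely Fcer1a, Ms4a2, Gata2, Tpsab1, Mrgprb1 and Mrgprb2. These 6 passed the filter through the mast side alone and could only come out higher. Tpsab1 had 2 UMIs on the mast side, under its floor of 3 UMIs. Of 14 tested ILC2 genes, of 16 outside the gate, 11 were at 0 UMIs on the mast side, and 6 of these lay under the mast side's floor of 3 UMIs (167 CPM) on the ILC2 side, so that no difference could be seen. The other 5 were at least 6.76-fold (Il7r), 4.50-fold (Arg1), 3.26-fold (Il2ra), 2.78-fold (Bcl11b) and 1.04-fold (Areg) lower on the mast side. Rora and Il13 had 1 UMI each on the mast side, and Hes1 was higher, with 7 UMIs against 2. Among 10 genes of granule matrix and amines 9 were higher, with Srgn, the serglycin core protein of granules, at 3627 against 1038 CPM. Among 14 genes of FcεRI and its signalling 8 were higher, while Syk and Plcg2, called lower, had 0 UMIs on the mast side and lay under its floor on the ILC2 side. Of 12 immediate early and heat shock genes, which also change with tissue dissociation, 10 were higher (median 1.94), and Fos had 106 UMIs in 3 of the 4 cells. Since 1 UMI on the mast side is 55.8 CPM, a count of called genes near the background is not a result about the list.

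Other cell types' markers were looked for in the mast-side cells. The macrophage, neutrophil, eosinophil, fibroblast and gamma-delta T cell lists were at 0 UMIs in all 4. The B cell list had 1 UMI, the T cell list 3 UMIs of Lat in 2 cells, and the dendritic cell list 2 UMIs in 1 cell. The NK and ILC1 list had 1 UMI in 1 cell and the endothelial list 3 UMIs in 2 cells. Of the basophil list 6 of 10 genes were detected, namely Prss34, Cd200r3, Ms4a2, Fcer1a, Il4 and Gata2, of which Cd200r3, Ms4a2, Fcer1a and Gata2 are also on the mast cell list, while Mcpt8 was at 0. Of the melanoma list only Kit and Mitf, both known in mast cells, were detected. Ptprc, which encodes CD45, had 3 UMIs in 2 of the 4 cells.

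Some cells with the mast cell genes lay outside the gate. A knockout cell with 505 protease UMIs, 22 of Hdc and 15 of Il1rl1 was left out for 1 UMI of Cd3e or Cd3d. A cell with 10 protease UMIs and 2 of Cd3e or Cd3d, and a cell with 299 UMIs of Hdc, 8 of Fcer1a, 9 of Gata2 and 1 of Mcpt8 but 5 of Cpa3 alone, were left out in the same way. A cell with 8 protease UMIs had 15.3% mitochondrial UMIs and 1 of Cd3e or Cd3d. In the control library a barcode with 17 protease UMIs, 16 of them of Cpa3, and with 8 of Kit, 11 of Il1rl1 and 5 of Gata2, was left out for 10.3% mitochondrial UMIs. That control barcode had 0 UMIs of Mcpt4, Tpsb2 and Hdc and 2 of Mcpt8, so its markers were mixed. Among barcodes without Ncr1, several cells with mast cell genes were thus present in the knockout library before the filters. In the control library a single barcode without Ncr1 had some of these genes, and cells with Ncr1 are described next.

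The Ncr1 condition removed cells of another kind from the mast side. Without the 4 excluding conditions 16 knockout cells and 2 control cells had at least 5 protease UMIs, and 9 of the knockout cells had Ncr1 and Cma1 as their only protease gene. Both of the 2 control cells had Ncr1, and only 1 of them had Cma1 as its only protease gene. Cma1 was found in 73 of 631 knockout NK cells (11.6%, up to 18 UMIs in a cell), taken as cells with Ncr1 and no Cd3e or Cd3d, and in 30 of 228 control NK cells (13.2%). In B cells, which should lack it, Cma1 was found in 1 of 112 knockout cells and 0 of 145 control cells, which allows up to 2.07%. Median depths were 10810 and 8495.5 UMIs in the knockout and control NK cells, and 8546.5 and 6179 UMIs in the knockout and control B cells. The sum of Cma1 was 20.5 CPM in knockout NK cells and 19.0 CPM in control NK cells, with overlapping intervals (17.5 to 23.9 and 14.2 to 24.9). Cma1 was thus found well outside the mast-side cells, whereas Mcpt4 was found in 5 knockout NK cells and 0 control NK cells. Mcpt4 was also found in 7 of 666 knockout cells with at least 3 UMIs of Csf1r and no Cd3e or Cd3d (1.05%). Cma1 was found in 7 of these cells as well. Of 2407 such control cells 0 had Mcpt4 and 6 had Cma1.

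The gated cells were far more frequent in the knockout library, and the difference lay on the ILC2 side. They were 100 of 8697 knockout cells (1.15%, 0.936 to 1.40) and 1 of 9415 control cells (0.0106%, 0.000269 to 0.0592), a ratio of 108 (19.0 to 4318). The ILC2 side made up 1.10% of the knockout library (0.895 to 1.35) and 0.0106% of the control library. Per 100 NK cells there were 15.2 ILC2-side cells for the knockout and 0.439 for the control, and per 100 cells with Cd3e, Cd3d or Ncr1 there were 1.64 and 0.0272. Since cells cannot be assigned to tumours, a difference between 2 libraries cannot be told apart from one between single tumours. The mast side was 0.0460% of the knockout library (0.0125 to 0.118) and 0 of 9415 control cells, which allows up to 0.0319% by a limit of 3 cells and up to 0.0392% by the exact interval. Against 3 control cells the ratio was at least 1.44, but the 2 exact intervals overlap, and 4 cells are few. Per NK cell that bound was 0.482, and per cell with Cd3e, Cd3d or Ncr1 it was 0.836, so the direction is not fixed there.

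**Figure D3:**
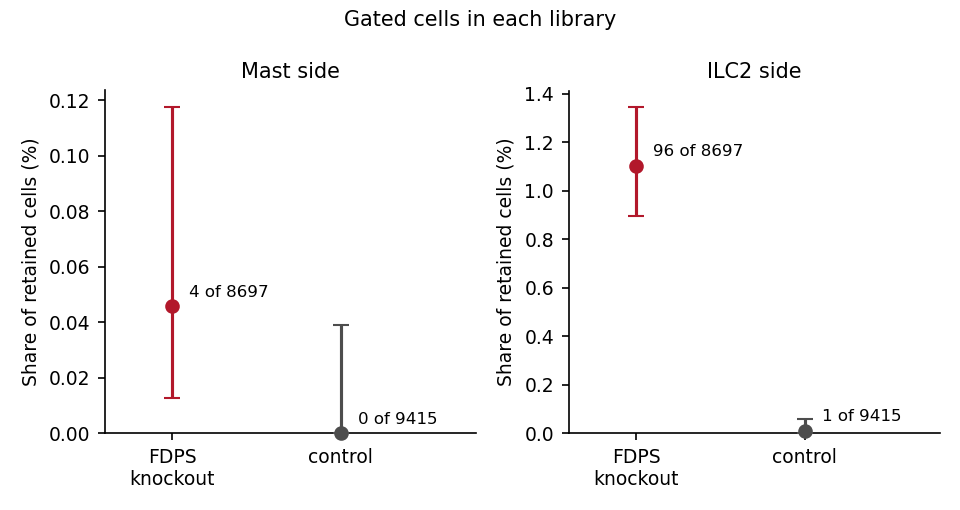
Share of retained cells on the mast side (left) and the ILC2 side (right) in the FDPS knockout and control libraries, as points with exact 95% intervals, on axes of different length. The intervals overlap on the mast side, at 0.0125 to 0.118% and 0 to 0.0392%, and are apart on the ILC2 side, at 0.895 to 1.35% and 0.000269 to 0.0592%.

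Il1rl1, a gate gene, also differed between the libraries in cells outside the gate. In phagocytes, taken as cells with at least 3 UMIs of Csf1r and no Cd3e or Cd3d, it was found in 162 of 666 knockout cells (24.3%, 36.4 CPM) and 20 of 2407 control cells (0.831%, 0.468 CPM). After thinning to 3000 UMIs the shares were 8.81% and 0.209%. In B cells it was found in 1 of 112 knockout cells and 0 of 145 control cells. The part of this in the count of gated cells was not tested. Among cells that met the 4 conditions, 78 knockout members and 0 control members had at least 6 of the 16 ILC2 markers outside the gate. A further 3 knockout cells and 1 control cell, which passed neither side, had as many. Each of the 78 members had to have Il1rl1 to pass the ILC2 side. Gata3 and Il1rl1 together, before the excluding conditions, were found in 345 knockout cells and 38 control cells, and 232 and 36 of them had Cd3e or Cd3d. With at least 3 UMIs of Cd3e and Cd3d and no Foxp3, Gata3 and Il1rl1 T cells numbered 147 for the knockout and 21 for the control. With Foxp3 there were 40 in the knockout and 10 in the control.

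The control member had 3850 UMIs and 5 of the 16 ILC2 markers. These were Il7r (8 UMIs), Bcl11b (5), Icos (2), Tcf7 (2) and Rora (1). Its ILC2 list stood at 46.8 UMIs per 10000, against a median of 44.7 in the 96 knockout cells. It had no UMI of Arg1, Kit or Klrg1, but at its depth a gene at 0 UMIs is not shown to be absent. Its T cell list also stood at 46.8 UMIs per 10000, against a median of 6.75 in the 96 knockout cells, whose highest was 27.7. The control member also had 1 UMI of Cd5, a T cell surface gene at 0 in all 96.

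The 96 knockout ILC2-side cells held 525 to 27108 UMIs (median 9294.5) and are described against 2 groups of the same library, the 147 Gata3 and Il1rl1 T cells (median 23451 UMIs) and the 631 NK cells (median 10810 UMIs). Cells are not replicates, so the comparisons are of summed UMIs. Over all knockout cells outside the gate 1567 of 9030 genes tested were past 2-fold (17.4%), 6.66% higher and 10.7% lower. Over the T cells, 2003 of 8803 genes tested were past 2-fold (22.8%), 990 higher (11.2%) and 1013 lower (11.5%); the median log2 ratio was 0.03. Over the NK cells, 1288 of 8851 were past 2-fold (14.6%), 643 higher (7.26%) and 645 lower (7.29%), with a median of -0.03. The T cells were set apart from the ILC2 side by Cd3e and Cd3d, and the NK cells by Ncr1, so differences in genes of those lineages follow from the choice of cells.

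Receptor genes of ILC2s were mostly higher: 12 of 20 tested (of 23) over the T cells, with 3 lower and the median at 1.85 on the log2 scale, and 17 of 19 over the NK cells, with 1 lower and a median of 2.84. Il7r, the interleukin-7 receptor that ILC2s need to survive, was at 1132 CPM (1066 to 1201) on the ILC2 side, against 122 CPM in the T cells and 115 CPM in the NK cells, and was found in 89 of 96 cells. Il2ra, the alpha chain of the interleukin-2 receptor, was at 546 CPM, against 65.0 CPM in the T cells and 24.6 CPM in the NK cells. Klrg1, an inhibitory lectin-like receptor of mature ILC2s, was at 137 CPM in 57 cells, against 8.87 and 43.6 CPM. In the 40 Gata3 and Il1rl1 regulatory T cells of the same library (median 11208.5 UMIs) Il2ra was at 541 CPM and Klrg1 at 177 CPM, with intervals of 487 to 600 and 147 to 213, so that Il2ra differed by less than counting error from the ILC2 side and Klrg1 was not higher on it. Il7r was at 423 CPM, Rora at 415 CPM, Arg1 at 68.2 CPM and Kit at 3.03 CPM in these cells, below the ILC2 side in each case. Other genes went the other way or were alike. The ILC2 marker Icos was at 465 CPM in these regulatory T cells, against 117 CPM on the ILC2 side, and Tnfrsf18 at 359 against 171 CPM. The ILC2 marker Bcl11b was at 479 CPM, against 465 CPM on the ILC2 side. The neuropeptide receptor genes Ramp1 and Calcrl, which together form the receptor of calcitonin gene-related peptide, were at 438 and 208 CPM, against 81.0 and 44.8 CPM in the T cells. Nmur1, the neuromedin U receptor, had 14 UMIs in 10 cells, and Ptgdr2, the prostaglandin D2 receptor often used to find ILC2s, had 0 UMIs in all 96, which allows up to 3.12% of cells with a UMI. The 3 receptor genes lower than in the T cells were Tnfrsf4, Pdcd1 and Il18r1, and the 1 lower than in the NK cells was Il18r1, at 196 CPM against 484 CPM in each.

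**Figure D4:**
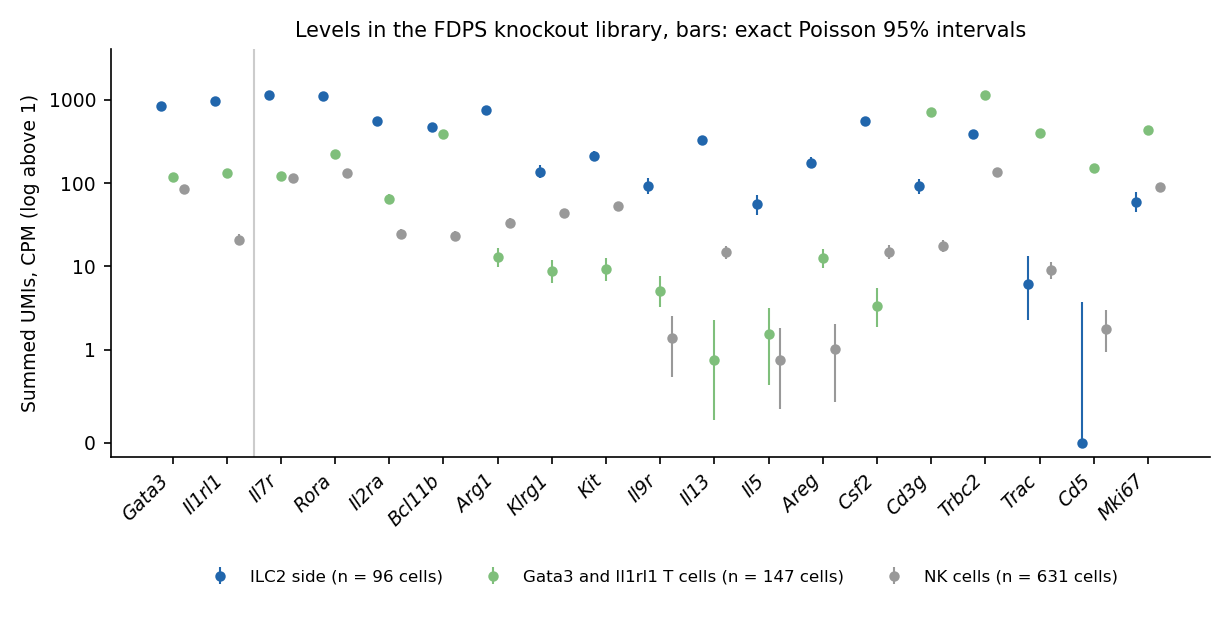
Summed UMIs in CPM (log scale above 1) of 19 genes in the 96 ILC2-side cells, the 147 Gata3 and Il1rl1 T cells and the 631 NK cells of the FDPS knockout library, with exact Poisson 95% intervals; the gate genes Gata3 and Il1rl1 are left of the line. Il7r and Rora lie at 1132 and 1090 CPM on the ILC2 side, and Cd5 and Trac at 0 and 6.17 CPM.

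Transcription factor genes were split between higher and lower. Over the T cells 4 of 13 tested genes outside the gate were higher, namely Zbtb16, Rora, Id2 and Maf, and 4 were lower, namely Tcf7, Tox, Runx3 and Lef1. Rora, which ILC2s need to develop, was at 1090 CPM in 92 of 96 cells, against 222 CPM in the T cells and 132 CPM in the NK cells. Id2, an inhibitor of E proteins shared by all innate lymphoid cells, was at 849 CPM, against 264 and 756 CPM. Bcl11b, which upholds ILC2 identity, was at 465 CPM, against 382 CPM in the T cells, where it is also known, and 23.3 CPM in the NK cells. Eomes, a factor of NK cells, had 0 UMIs.

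Arg1 was a frequent gene of the ILC2 side. Arginase 1, which uses up arginine and is known in ILC2s and in macrophages, was at 753 CPM (700 to 810) and found in 77 of 96 cells (80.2%, 70.8 to 87.6). It was at 12.9 CPM in the T cells and 33.3 CPM in the NK cells, and was found in 0 of 112 knockout B cells, which allows up to 2.68% at their median depth of 8546.5 UMIs. After thinning each cell to 3000 UMIs it was found in 62.4% of ILC2-side cells, 4.08% of the T cells and 2.48% of the NK cells. A further 18 knockout cells met the ILC2 side but had 1 or 2 UMIs of Cd3e and Cd3d together. In these Arg1 was at 425 CPM (340 to 524) in 10 cells, Il7r at 1012 CPM, Rora at 612 CPM and Kit at 88.9 CPM. Trac was found in 5 of the 18 cells and Cd28 in 8. High levels of Arg1, Il7r and Rora were thus not confined to the gate. Csf1r, which marks macrophages, had 4 UMIs in 4 of the 96 cells, but the gate allowed at most 1 per cell, so this is a description only. The macrophage list without Csf1r had a median of 8.48 UMIs per 10000 (0 to 29.5). Retnla, a gene of tumour macrophages, was found in 55 of the 96 cells (57.3%) and in 54.5% of B cells, so that its share was at background.

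Cytokine genes were found in a minority of the cells, most of which held under 10 UMIs of a given gene. Il13 was found in 16 of 96 cells, at 324 CPM (289 to 362) in all, and 5 of these cells held 81.0% of its 315 UMIs, with up to 78 in a cell. At least 10 UMIs were found in 7 of the 16 cells with Il13, 5 of 18 with Csf2, 6 of 25 with Areg and 1 of 17 with Il5. Csf2, which encodes the growth factor GM-CSF, was found in 18 cells, and 5 of them held 95.1% of 534 UMIs. Areg, which encodes amphiregulin, was found in 25 cells and Il5 in 17, at 175 and 55.6 CPM. In B cells Il13 and Areg each had 1 UMI in 1 of 112 cells, and Il5 and Csf2 were at 0 of 112, which allows up to 2.68%. Il13 was found in 1 of 147 T cells (0.887 CPM) and in 5 of 631 NK cells, whose 116 UMIs make 14.9 CPM. Over the T cells 5 of 10 tested genes of the cytokine list (of 19) were higher, namely Csf2, Il13, Areg, Il5 and Lif, and 3 were lower, namely Ccl1, Ccl3 and Ccl4. Il4 had 4 UMIs in 4 of the 96 cells, against 18 UMIs in the 4 mast-side cells.

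**Figure D5:**
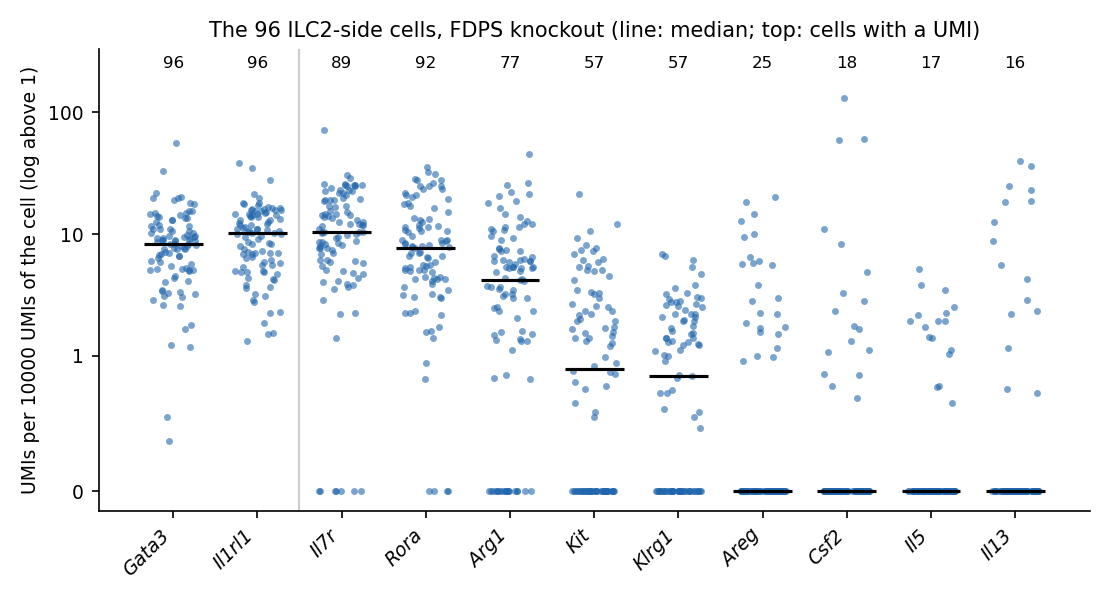
UMIs per 10000 UMIs of the cell (log scale above 1) of 11 genes in each of the 96 ILC2-side cells of the FDPS knockout library, with the median as a line and the number of cells with a UMI on top; the gate genes are left of the line. Il7r and Rora are spread over nearly all cells, in 89 and 92 of them, while Il13 is at 0 in all but 16 and reaches 39.5.

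The cytokine genes overlapped in part. Any of Il13, Il5 and Areg was found in 41 cells, all 3 in 5 and none in 55. Il13 and Il5 were found together in 8 cells, with 8 cells of Il13 alone and 9 of Il5 alone. All 16 cells with Il13 had Arg1, which a further 61 cells had without Il13. Cells with Il13 were deeper, with a median of 13478.5 UMIs, against 8785 UMIs in those without it, and the part of depth in these overlaps was not tested. Kit and Klrg1 were found together in 38 cells, each alone in 19 and neither in 20, so Kit did not divide the cells from those with Klrg1.

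The ILC2-side cells carried some T cell genes, but the T cell receptor alpha chain was at the share seen in B cells. Trac, the constant gene of that chain, was found in 6 of 96 cells (6.25%), against 97.3% of the T cells and 7.14% of B cells. Cd5 was found in 0 of 96 cells, against 125 of 147 T cells, where it was at 153 CPM, which is at least 49.5-fold lower on the ILC2 side against a floor of 3 UMIs. After thinning to 3000 UMIs Cd5 was still found in 38.1% of the T cells. Trbc2 and Trbc1, the constant genes of the beta chain, were found in 68.8% and 63.5% of ILC2-side cells, against 12.5% and 11.6% of B cells, and Cd3g in 32.3%, against 10.7%. NK cells carried Trbc1 too, in 82.1% of cells, and Trbc2 in 290 of 631. Of the gamma-delta T cell genes, Tcrg-C1 was found in 20 cells and Trdc in 2. Klrb1c and Eomes, NK cell genes, had 0 UMIs, and Gzma, a granzyme, was at 3.09 CPM, against 2488 CPM in the NK cells.

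Outside every list, genes not usually named for lymphocytes were among the highest over the T cells, including Ctnna2, Dach2, Cntn1, Pde7b, Lpcat2, Pcsk1 and Slc7a8. Cntn1, an adhesion gene of neurons, was at 856 CPM in 86.5% of ILC2-side cells, against 19.96 CPM in 4.76% of the T cells. Dach2, a transcriptional cofactor, was at 1469 CPM in 81.2%, against 34.2 CPM. Pcsk1, a proprotein convertase, was at 215 CPM, against 3.77 CPM, and Slc7a8, an amino acid transporter, at 416 CPM, against 12.4 CPM. Of these, Ctnna2, Dach2, Cntn1 and Slc7a8 were also among the 8 highest over the NK cells, with Pard3, Ptpn13, Csgalnact1 and Apbb2. Ctnna2 was unevenly carried, in 26.04% of cells at 670 CPM. The lowest over the T cells included Xcl1, a chemokine, at 5.15 CPM against 754 CPM, and the T cell surface genes Cd5 and Cd6.

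Division genes were lower than in the T cells, while interferon and sterol genes lay nearer to both groups. All 16 of 16 genes of cell division were lower than in the Gata3 and Il1rl1 T cells (median log2 ratio -2.60), against 2 of 15 lower than in the NK cells and a median of -0.58. The T cells had to have a UMI of both genes, which were at 117 and 131 CPM there, and they were deeper (median 23451 against 9294.5 UMIs). The part of this choice in the division genes was not tested. Mki67 or Top2a was found in 25 of the 96 cells, and 1 cell held 41 of 58 UMIs of Mki67. Of 13 tested interferon-stimulated genes 5 were higher than in the T cells, among them Usp18, Oas3, Ifit1 and Ifitm3, while of 15 tested over the NK cells 0 were higher and 1, Oasl1, was lower. Of 15 tested genes of mevalonate and sterol synthesis 0 were higher than in the T cells and 3 were lower, namely Pmvk, Idi1 and Sqle, while over the NK cells Cyp51 was higher and none was lower of 12. Oas3, Ifit1 and Pmvk lay within 2-fold of the T cells when each cell was weighted equally. Fdps itself, the gene lost in the tumour line, was found in 13 of the 96 cells at 14.4 CPM, against 28.2 CPM in the T cells and 19.7 CPM in the NK cells. Of the eicosanoid genes Alox5 and Cysltr1, a leukotriene receptor, were at 89.5 and 132 CPM, against 5.32 and 15.5 CPM in the T cells.

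The immediate early and heat shock genes were also higher on the ILC2 side, 8 of 12 over the NK cells and 6 of 12 over the T cells, with medians of 1.53 and 1.02. The median over the T cells fell within 2-fold under 2 alternatives. It was 0.99 when scaled by the median ratio of genes and 0.88 with each cell weighted equally. Hspa1b, a heat shock chaperone, was at 872 CPM, against 171 CPM in the NK cells. These genes change with handling of the cells, and their part in the other differences was not tested.

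The label of the cells was checked against their markers in each cell. Of the 96 ILC2-side cells 78 had at least 6 of the 16 ILC2 markers outside the gate, and 2 had fewer than 3. The first of these 2 had 525 UMIs in all. The second, with 27108 UMIs, had 0 UMIs of the 16 markers, 303 UMIs of the dendritic cell list and 56 of the macrophage list, so its markers go against the label. Over the 4 mast-side cells together all 13 mast cell markers outside the gate were detected, with 9 to 12 of them in each cell.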

How the data were processed

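The deposited values are whole-number UMI counts per gene and cell barcode, each a tally that the authors obtained, per the file headers, from Cell Ranger 7.2.0. The submitters' processing notes name mm10. Which annotation release they used was not given in the sources used here. No model was fitted, since each group is 1 library. Barcodes with at least 200 genes and under 10% mitochondrial UMIs were retained (8697 of 9130 knockout and 9415 of 10882 control barcodes, with 127186298 and 208936136 UMIs before filtering). Groups were taken from the labels.

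Members, comparators and gene lists were chosen with earlier results of these data known. UMIs were summed over cells and compared as log2(CPM + 5) in genes with a mean of at least 10 CPM, called past 2-fold. B cells had at least 2 UMIs of Cd79a and Ms4a1. Genes were named by a rule: the gate genes and mast cell and ILC2 markers, up to 4 genes of each functional list with the largest absolute log2 ratio, and outside the lists the 8 highest and 8 lowest with at least 50 CPM and UMIs in 25% of cells in the higher sum. The comparisons with Gata3 and Il1rl1 T cells and with NK cells, and their named genes, were added after the data were seen, and genes named beyond the rule were chosen after their values were seen. A few genes that the rule names are not reported here. Shares were also computed after thinning to 3000 UMIs. Scrublet, in scanpy 1.11.5, marked 0% and 1.53% of knockout and control cells by its own threshold, the first of which has not worked, so no cell was removed; leaving out the 636 and 820 highest scores was an alternative, and 3 members were among them. Other alternatives changed the gate, the filters, the pseudocount, the scaling and the weight of cells. Scripts used Python 3.11.15, numpy 2.4.6, scipy 1.17.1 and pandas 2.3.3, and were tested on simulated data. Gene positions came from GENCODE vM21, in which 32158 of 32285 gene IDs (99.6%) were found.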

Additional observations from a re-analysis of the deposited data

How the results depend on the processing

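The gated share lay between 1.01% and 1.23% for the knockout, and between 0.0106% and 0.0184% for the control, under the planned limits on mitochondrial UMIs, genes, UMIs of the sides, Csf1r, depth, doublet scores and melanoma cells. Without the conditions on Cd3e, Cd3d, Foxp3, Ncr1 and Csf1r it was 4.15% for the knockout and 0.425% for the control. Cells with any of the first 4 genes, or with more than 1 UMI of Csf1r, then enter. Per cell with Cd3e, Cd3d or Ncr1, an alternative chosen after seeing the data, it came to 1.71% for the knockout, by a smaller denominator. No ILC2-side cell passed the mast side under any gate tried except at 3 protease UMIs, where 1.04% did.

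The 5463 genes past 2-fold between the mast and ILC2 sides became 8295 with no filter on low values, 1953 at 50 CPM or more and 144 at 500 CPM or more, the last added after seeing the data, as more or fewer genes were tested. Those over the T cells became 914 and those over the NK cells 589 at 50 CPM or more, both added after seeing the data. Of 45 list medians 0 crossed 2-fold with a pseudocount of 1 CPM, 4 with scaling by the median ratio and 4 with each cell weighted equally. Of 353 named genes 20, 2 and 18 did. Scaling moved the median of all genes in the mast comparison from -0.84 to -1.39, and the IgE receptor list's median from 1.48 to 0.90. Of mast comparison calls, 32.4% were higher, against 46.9% at 50 CPM or more and 52.8% at 500 CPM or more, where most calls were higher. Over the T cells higher calls went from 49.4% to 52.0% at 50 CPM or more, and the median of all genes lay within 0.1 of 0 under every setting. No named gene or list past 2-fold changed sign under the pseudocount, scaling or equal weight; the cause of the other moves was not tested.

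No paired analysis was possible because each group has 1 library and no test was made. Depth limits the mast side, where 1 UMI is 55.8 CPM, and the single control cell, where it is 260 CPM; a gene at 0 UMIs there is not shown to be absent.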
